A study of Rattus norvegicus with 12 samples.

Results

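Solute carriers are the membrane transporters that move amino acids, sugars, ions, metals, nucleosides and metabolites across the cell surface and the membranes of organelles, and their genes carry a family number and a member number after the prefix Slc. Members were chosen by symbol and by measured level: of 354 symbols of this form in the deposited counts, 234 reached 1 CPM (counts scaled to a common library total) in at least 6 of the 12 libraries. Of these, 10 carriers are left out of the group by its definition, which leaves 224 members of 30045 symbols in all. Because the group was picked with earlier results of the same data known, its counts of changed genes are a description and not independent evidence.

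RNA was sequenced from a piece of lung of each of 12 male F344/DuCrl (Fischer 344) rats, bought at 3 months of age and housed 3 per cage. In 1 group 6 rats breathed air, and in the other 6 rats breathed crystalline nanocellulose (CNC), stiff rod-shaped crystals prepared from cellulose, at 20 mg/m3. Exposure was of the whole body, 6 hours a day and 5 days a week for 14 exposure days in total, and the tissue was collected 1 day after the last. The comparison asks how transporter expression in the lung differs after repeated inhalation of CNC, at this single concentration and time.

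In the lung, transporters at the alveolar surface set the ion and fluid balance of the lining layer and recover nutrients from it, and the capillary endothelium clears amines, nucleosides and prostaglandins from the blood that passes through. Inflammatory cells depend on glucose and lactate carriers for glycolysis and on cationic amino acid carriers for the arginine that nitric oxide synthase and arginase use. Several light-chain carriers of the Slc7 family work only as a pair with a heavy chain from the Slc3 family, and the lactate carriers of the Slc16 family need the chaperones basigin or embigin to reach the cell surface.

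The libraries held 8693259 to 16603697 counts, and the members together took 0.925 to 0.959% of the counts of an air library and 0.979 to 1.00% of a CNC library. Genes that mark the lung were abundant in both groups, with the surfactant protein gene Sftpc at 10230 ± 1094 CPM (SD) over the 6 air rats and 13410 ± 956 CPM over the 6 CNC rats. Lists of marker genes for the cells of the lung differed between the groups. The summed CPM of 11 activated macrophage markers ran from 2174 to 3092 in air and from 4316 to 5799 in CNC, and all 11 were called higher. The sum of 12 neutrophil markers ran from 177 to 283 and from 439.8 to 701, but of the 10 tested 5 were higher, 1 (Ngp) lower and 4 not called, and S100a9 alone went from 73.2 ± 12.9 to 275 ± 68.8 CPM and Cd177 from 17.0 ± 7.86 to 119 ± 23.6 CPM. For 12 alveolar type 2 cell markers the sum ran from 22160 to 29290 in air and from 30320 to 37050 in CNC, and for 12 endothelial markers from 6347 to 7401 and from 5356 to 5945. Of the type 2 cell markers 10 were higher and 2 (Sftpb and Etv5) not called. A change in the number of cells of a type and a change in RNA per cell cannot be told apart in these whole-tissue libraries.

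Levels of the members averaged 1.05 to 378 CPM over the 12 rats with a median of 24.9, and 213 of the 224 reached 1 CPM in every library. All 224 passed the count filter of the test, and 0 of them had 6 libraries of 1 group and 0 of the other at 1 CPM. That count misses members that lean on 1 group, such as Slc16a4, at 1 CPM in 2 air and 5 CNC libraries. Just inside the minimum lay Slc26a3, whose sixth highest library stood at 1.06 CPM, Slc16a4 (1.15) and Slc4a8 (1.32). Just outside it lay Slc38a8 (0.920), Slc6a17 (0.875), Slc1a7 (0.778) and Slc35g2 (0.723). No transcript lengths were used, so levels are not compared between genes.

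More members rose than fell after CNC. By edgeR's quasi-likelihood test, with p-values adjusted by the Benjamini-Hochberg method over all 15019 tested genes and a threshold of 0.05, 65 of the 224 members (29.0%) were higher in CNC, where 13.2% of all tested genes were. Another 16 members (7.14%) were lower, against 11.4% of all tested genes, so that 81 were called in either direction against 24.6% of all genes, and 143 were not called. In 44 members the 6 CNC rats and the 6 air rats did not overlap (37 higher and 7 lower in CNC), against 11.5% of all tested genes. Most differences were small. A called change of at least 1.5-fold was found in 23 members (21 higher and 2 lower), where 3.61% of all tested genes had one, and 5 members at least doubled. The median fold was 1.30 among the 65 that rose and 1.23 among the 16 that fell, and the median log2 fold change was 0.06 over all members and -0.0026 over all tested genes. With the 10 carriers that the definition leaves out, 71 of 234 were higher and 17 lower.

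**Figure D1:**
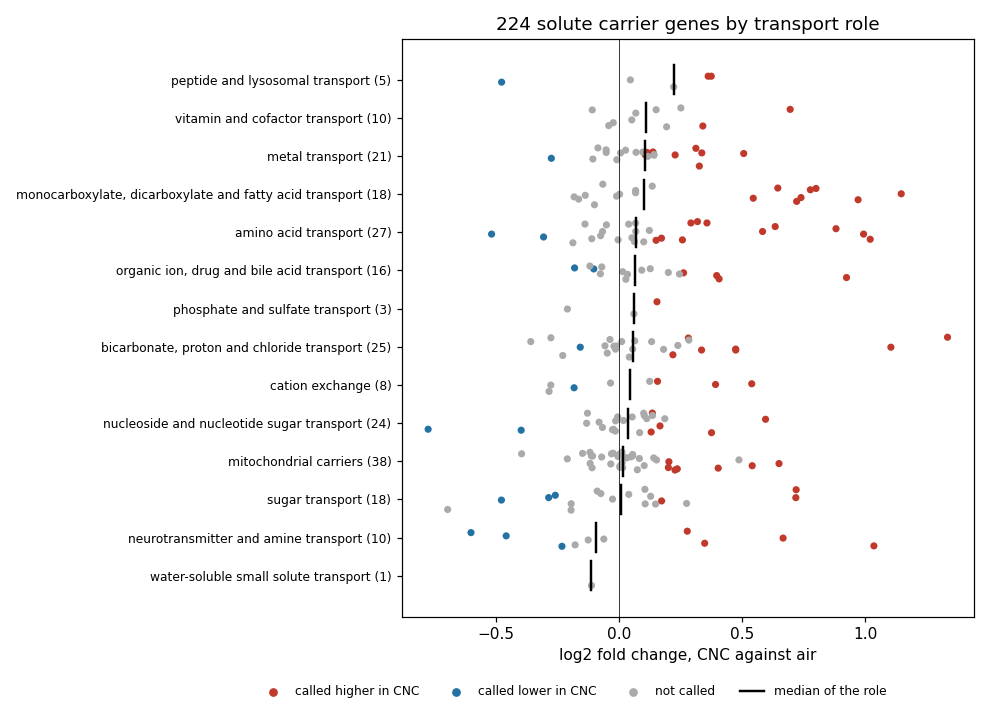
Fitted log2 fold change of CNC against air (horizontal axis) for each of the 224 solute carriers, with 1 point per gene, grouped by transport role (vertical axis, number of members in brackets) and coloured by the call of edgeR's test. The black bars give the median of each role, which lies between -0.11 and 0.22, and 65 red points lie to the right of 0 and 16 blue points to the left.

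The 45 families differed in the direction of their calls, as the plot by transport role shows for the groups they form. Calls went both ways in 10 families, upward only in 21, downward only in 3 and in neither direction in 11. Among the 15 families with at least 5 members, 9 had no member called lower. That count depends on family size, because only 11.4% of all tested genes were lower, and it was not tested. The Slc16 monocarboxylate family had 6 of 11 members higher, the Slc39 zinc importers 6 of 12 and the Slc7 amino acid carriers 6 of 9, with 2 Slc7 members lower. In the 2 largest families 7 of 38 mitochondrial Slc25 carriers (18.4%) and 4 of 19 Slc35 members (21.1%) were called, all higher. Many Slc35 members carry nucleotide sugars into the Golgi. Of all tested genes 13.2% were higher and 11.4% lower, and 24.6% were called in either direction.

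Roles were assigned by family. Of the 27 carriers in families with an amino acid role, 11 were higher, 2 lower and 14 not called. Of all tested genes 13.2% were higher and 11.4% lower. The median log2 fold change of these 27 was 0.07. Slc7a5, the light chain of the L-type exchanger for leucine and other large neutral amino acids, lay between 11.8 and 17.2 CPM in the air rats (median 13.2) and between 22.8 and 32.9 CPM in the CNC rats (median 27.8). The groups did not overlap, and Slc7a5 rose 2.03-fold (log2 fold change 1.02 ± 0.10 SE, adjusted p = 4.36e-06). Its heavy chain Slc3a2 was not called, with 244 ± 16.1 CPM over the 6 air rats and 227 ± 10.3 CPM over the 6 CNC rats (mean ± SD, as for all values given in this form; log2 fold change -0.11 ± 0.04 SE, adjusted p = 0.0875). Counts of Slc7a5 per 100 counts of Slc3a2 ran from 4.72 to 7.65 in air and from 9.62 to 15.3 in CNC.

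The cationic amino acid carriers moved in the same direction. Slc7a7, the light chain that exports arginine and lysine and whose loss causes lysinuric protein intolerance, ran from 23.2 to 40.0 CPM in air (median 32.7) and from 55.0 to 71.0 CPM in CNC (median 64.0). It rose 1.99-fold with no overlap (log2 fold change 0.99 ± 0.11 SE, adjusted p = 1.53e-05). Slc7a2, an arginine importer of macrophages and other cells, ran from 25.3 to 38.5 CPM in air (median 35.7) and from 46.7 to 84.6 CPM in CNC (median 61.8). All CNC rats again lay above all air rats, although they spread more widely (SD 14.4 CPM against 4.93 CPM), and the rise was 1.84-fold (log2 fold change 0.88 ± 0.13 SE, adjusted p = 0.000208). Slc7a1, the arginine importer of most cell types, rose 1.55-fold from 14.1 ± 1.75 to 21.9 ± 3.20 CPM, with 1 CNC rat inside the air range.

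Among carriers of glutamine and of acidic amino acids, Slc1a5 and Slc1a1 rose, and Slc38a2, Slc38a5 and Slc1a3 were not called. Slc1a5, which takes up glutamine and other small neutral amino acids, ran from 19.8 to 27.4 CPM in air (median 21.2) and from 31.3 to 36.9 CPM in CNC (median 32.7), a 1.50-fold rise (log2 fold change 0.58 ± 0.07 SE, adjusted p = 4.20e-05) with no overlap. The glutamate carrier Slc1a1 rose 1.22-fold, the lysosomal amino acid exporters Slc36a1 and Slc38a7 rose 1.28-fold and 1.20-fold, and the light chains Slc7a8 and Slc7a6 rose 1.25-fold and 1.11-fold. Slc43a2, another carrier of large neutral amino acids, rose 1.13-fold. The glutamine carriers Slc38a2 (189 ± 11.0 CPM in air and 198 ± 10.1 CPM in CNC, adjusted p = 0.299) and Slc38a5 (35.1 ± 4.43 and 32.1 ± 5.04 CPM, adjusted p = 0.348) were not called, nor was the glutamate carrier Slc1a3 (44.7 ± 2.46 and 42.7 ± 2.01 CPM, adjusted p = 0.322). In the Slc7 family 2 members fell. Slc7a10, a carrier of small neutral amino acids, went from 94.8 to 116 CPM in air (median 109.5) to between 72.2 and 97.2 CPM in CNC (median 89.3), where 2 CNC rats lay inside the air range, a 1.24-fold fall (log2 fold change -0.31 ± 0.07 SE, adjusted p = 0.00725). Slc7a15, with few counts, fell 1.43-fold from 2.18 ± 0.502 to 1.50 ± 0.251 CPM (adjusted p = 0.0469), and this call did not hold when any of 10 of the 12 rats was left out, all but air rat 3 and CNC rat 5, nor with DESeq2 or limma-voom, the adjusted p running from 0.0157 to 0.404 over all alternatives.

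**Figure D2:**
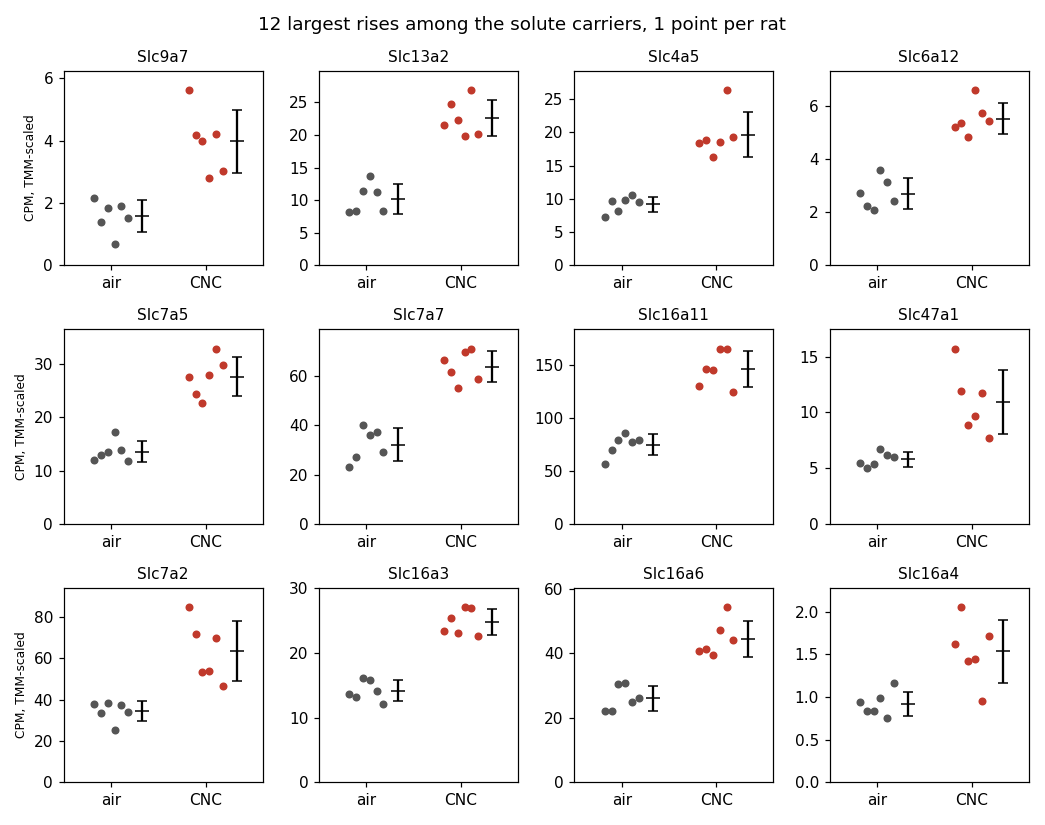
TMM-scaled CPM (vertical axis of each panel, starting at 0) of the 12 carriers with the largest rises, with 1 point per rat and the mean and SD of each group beside the points. In 11 panels every CNC rat lies above every air rat, and in the panel of Slc16a4 1 CNC rat, at 0.956 CPM, lies inside the air range.

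The sequences before the RefSeq start sites are shown for 7 called risers of the Slc7, Slc16 and Slc2 families. They are those that the rule for named genes picks and the table holds. They were chosen because carriers of amino acids, lactate and glucose whose RNA rose are among them. Of the 8 Slc2 members, Slc2a1 alone was called higher, and Slc2a10 was called lower. Each of the 7 has a single start in the table, and Slc16a11 and Slc16a4 hold none of the motifs searched. Each run gives the 250 bases before the start, 5′ to 3′ on the strand of the gene, from the RefSeq promoter table of build GRCr8, which is not the build of the counts. Capitals mark matches, on either strand, to the cores of the antioxidant response element (TGACNNNGC), the amino acid response element (TGATGCAA), the E-box (CACGTG), the hypoxia response element (ACGTG, which every CACGTG also contains) or the STAT element (TTCNNNGAA). The E-box match of Slc7a5 lies on chr19:66872413-66872662 (minus strand), the TGACNNNGC match of Slc7a7 on chr15:31835684-31835933 (minus strand), the TTCNNNGAA match of Slc16a3 on chr10:106712078-106712327 (plus strand), overlapping TGACNNNGC and CACGTG matches of Slc16a1 on chr2:194812410-194812659 (plus strand) and the ACGTG match of Slc2a1 on chr5:138002272-138002521 (plus strand). Slc16a11 is shown from chr10:55427705-55427954 and Slc16a4 from chr2:197599190-197599439 (both plus strand).
Slc7a5: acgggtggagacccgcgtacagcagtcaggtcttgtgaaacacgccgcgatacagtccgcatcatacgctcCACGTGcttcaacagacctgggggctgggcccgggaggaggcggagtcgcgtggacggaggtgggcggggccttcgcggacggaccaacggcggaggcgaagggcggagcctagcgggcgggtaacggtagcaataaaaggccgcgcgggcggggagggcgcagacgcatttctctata
Slc7a7: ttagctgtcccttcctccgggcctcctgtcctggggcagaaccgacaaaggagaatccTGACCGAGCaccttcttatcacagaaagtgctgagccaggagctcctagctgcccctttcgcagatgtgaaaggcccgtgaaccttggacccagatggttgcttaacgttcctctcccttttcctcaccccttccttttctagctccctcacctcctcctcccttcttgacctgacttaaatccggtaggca
Slc16a11: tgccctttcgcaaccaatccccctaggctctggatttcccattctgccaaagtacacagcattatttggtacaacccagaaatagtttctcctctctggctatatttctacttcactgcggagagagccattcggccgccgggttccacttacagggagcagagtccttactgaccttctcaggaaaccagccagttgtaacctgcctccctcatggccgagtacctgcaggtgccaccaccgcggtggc
Slc16a3: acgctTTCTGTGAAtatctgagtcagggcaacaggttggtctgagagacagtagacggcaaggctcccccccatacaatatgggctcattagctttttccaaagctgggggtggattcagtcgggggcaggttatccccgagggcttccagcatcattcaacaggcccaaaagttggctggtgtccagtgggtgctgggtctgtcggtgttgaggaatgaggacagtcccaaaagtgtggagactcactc
Slc16a4: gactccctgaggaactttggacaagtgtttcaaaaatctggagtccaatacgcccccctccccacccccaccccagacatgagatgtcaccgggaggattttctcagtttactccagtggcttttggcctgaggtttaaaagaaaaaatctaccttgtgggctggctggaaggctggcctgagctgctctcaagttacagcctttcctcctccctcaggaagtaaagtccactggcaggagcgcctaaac
Slc16a1: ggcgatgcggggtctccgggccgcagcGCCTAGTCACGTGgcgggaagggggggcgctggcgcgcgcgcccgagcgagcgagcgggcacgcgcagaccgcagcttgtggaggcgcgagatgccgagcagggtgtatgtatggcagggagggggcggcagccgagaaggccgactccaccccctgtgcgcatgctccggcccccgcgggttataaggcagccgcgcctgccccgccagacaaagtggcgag
Slc2a1: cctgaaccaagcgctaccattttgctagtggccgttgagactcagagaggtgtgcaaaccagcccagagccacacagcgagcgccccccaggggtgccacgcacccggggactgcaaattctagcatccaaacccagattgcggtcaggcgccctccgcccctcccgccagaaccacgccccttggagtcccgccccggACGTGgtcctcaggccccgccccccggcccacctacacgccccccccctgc
Of all 27457 promoters of this length in the table, 10.2% hold TGACNNNGC, 0.656% TGATGCAA, 5.80% CACGTG, 17.0% ACGTG and 7.52% TTCNNNGAA. A match is a string of letters and no binding was measured here. The motifs were not confined to risers. Among named members that fell, CACGTG occurred in Slc5a1 and Slc30a3, TGACNNNGC in Slc29a1 and Slc45a3, and ACGTG in Slc15a2 and Slc7a15. Among those not called, TGACNNNGC occurred in Slc38a2 and Slc30a1 and ACGTG in Slc17a5. The table holds 175 of the 224 members (78.1%), and no share of motifs over the members is given here.

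Carriers of lactate, ketone bodies, dicarboxylates and fatty acids rose in 8 of 18 members and fell in 0, with a median log2 fold change of 0.10. Of all tested genes 13.2% were higher and 11.4% lower. Slc13a2, a sodium-coupled carrier of citrate and succinate, ran from 8.14 to 13.8 CPM in air (median 9.80) and from 19.9 to 26.8 CPM in CNC (median 21.9), a 2.21-fold rise (log2 fold change 1.15 ± 0.13 SE, adjusted p = 1.13e-05) with no overlap. Slc16a11, a monocarboxylate family member, ran from 57.1 to 86.0 CPM in air (median 78.2) and from 125 to 166 CPM in CNC (median 146), a 1.96-fold rise (log2 fold change 0.97 ± 0.09 SE, adjusted p = 2.74e-06). Slc16a3, the carrier that exports lactate from glycolytic cells, ran from 12.1 to 16.2 CPM in air (median 13.9) and from 22.6 to 27.1 CPM in CNC (median 24.3). The groups were apart for both Slc16 genes, and Slc16a3 rose 1.74-fold (log2 fold change 0.80 ± 0.08 SE, adjusted p = 3.37e-06).

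Another 4 members of the Slc16 family rose. Slc16a6, a ketone body and taurine carrier, rose 1.71-fold from 26.01 ± 3.86 to 44.4 ± 5.55 CPM, and Slc16a14 rose 1.65-fold from 8.05 to 13.2 CPM. Slc16a1, the widely expressed lactate and pyruvate carrier, ran from 17.7 to 24.5 CPM in air (median 19.6) and from 24.6 to 36.6 CPM in CNC (median 29.2). Its groups were apart by a narrow gap (24.49 CPM in the highest air rat and 24.55 CPM in the lowest CNC rat), and the rise was 1.46-fold (log2 fold change 0.55 ± 0.10 SE, adjusted p = 0.000943). Slc16a4 rose 1.67-fold at the edge of the minimum, from 0.920 ± 0.143 to 1.54 ± 0.365 CPM (adjusted p = 0.0127). It was at 1 CPM in 2 air and 5 CNC libraries, so its entry leaned on the group where it is higher. Among fatty acid carriers Slc27a2 rose 1.56-fold, while Slc27a1 (42.6 ± 3.74 CPM in air and 44.6 ± 3.77 CPM in CNC, adjusted p = 0.502) and Slc27a3 (5.88 ± 0.839 and 6.13 ± 0.674 CPM, adjusted p = 0.723) were not called. Of the partners that take Slc16 carriers to the surface, embigin (Emb) rose 1.20-fold from 15.8 ± 1.64 to 18.9 ± 1.79 CPM, and basigin (Bsg) was not called (564 ± 32.1 and 545 ± 13.9 CPM, adjusted p = 0.394).

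**Figure D3:**
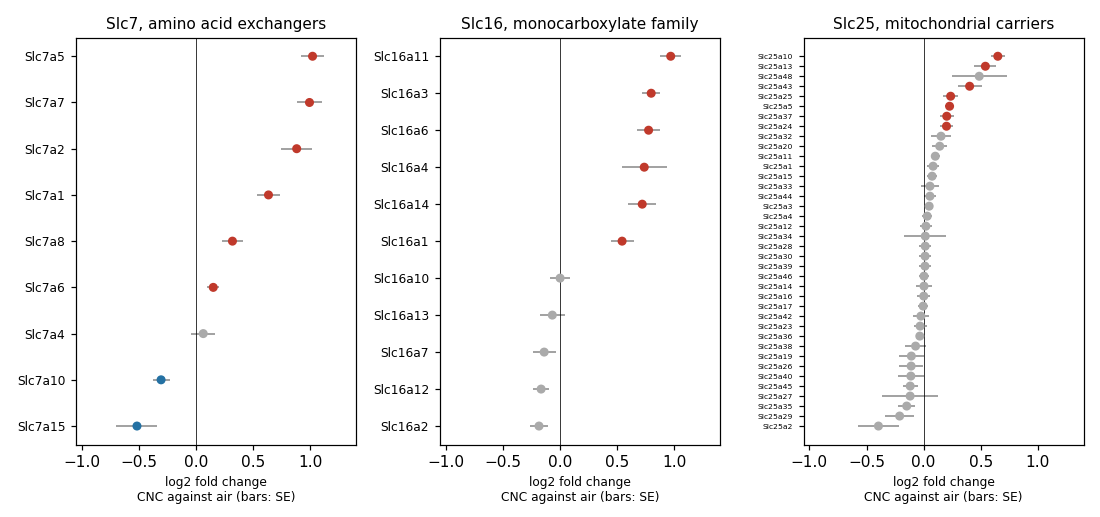
Fitted log2 fold change of CNC against air (horizontal axis, bars give the SE) of every member of the Slc7, Slc16 and Slc25 families, with members called higher in red, lower in blue and not called in grey. The called Slc7 members run from -0.52 to 1.02 and the called Slc16 members from 0.55 to 0.97, and most Slc25 members lie near 0.

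Among sugar carriers 3 of 18 (16.7%) were higher and 3 (16.7%) lower, near the 13.2% and 11.4% of all tested genes. Slc2a1, the basal glucose carrier of most cells, ran from 28.7 to 40.5 CPM in air (median 35.1) and from 52.9 to 59.1 CPM in CNC (median 57.4), a 1.65-fold rise (log2 fold change 0.72 ± 0.07 SE, adjusted p = 2.23e-06). Slc37a2, a glucose-6-phosphate exchanger of the endoplasmic reticulum that is rich in macrophages, ran from 10.4 to 12.0 CPM in air (median 11.3) and from 15.0 to 20.0 CPM in CNC (median 18.9), a rise of 1.65-fold (log2 fold change 0.72 ± 0.07 SE, adjusted p = 6.83e-06). Neither gene had a CNC rat inside the air range. Slc45a4 rose 1.13-fold from 54.1 ± 3.75 to 61.1 ± 2.49 CPM (adjusted p = 0.0131), a call lost with air rats 4 and 5 left out together (adjusted p = 0.0726, and 0.00655 to 0.0770 over all alternatives).

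Slc2a10, a glucose carrier family member whose loss causes arterial tortuosity, fell 1.20-fold with no overlap, from 27.8 to 35.3 CPM in air (median 29.9) to between 24.4 and 26.8 CPM in CNC (median 26.1; log2 fold change -0.26 ± 0.06 SE, adjusted p = 0.00324). Slc5a1, the sodium-coupled glucose carrier of apical epithelium, fell 1.22-fold from 39.3 ± 5.29 to 32.1 ± 3.85 CPM (adjusted p = 0.0345), with 4 of 6 CNC rats inside the air range. Its call was lost without air rat 3, 5 or 6 or CNC rat 1, 2, 3 or 6 (adjusted p up to 0.0809, and 0.0116 to 0.517 over all alternatives). Slc45a3 fell 1.39-fold from 3.42 ± 0.857 to 2.47 ± 0.318 CPM (adjusted p = 0.0435), a call lost without air rat 1, 2, 3, 4 or 5 or CNC rat 1, 2, 4 or 5 (adjusted p up to 0.102, and 0.0137 to 0.219 over all alternatives). The insulin-responsive carrier Slc2a4 was not called (2.28 ± 1.22 CPM in air and 1.41 ± 0.323 CPM in CNC, adjusted p = 0.118). Its highest values, 4.35 and 2.95 CPM, were in air rats 4 and 5, in which the summed CPM of 16 heart muscle markers was also highest (464 and 342 CPM, against 15.5 to 145 CPM in the other rats), and the part of heart muscle in the Slc2a4 level was not tested.

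Carriers of bicarbonate, protons and chloride were higher in 7 of 25 members (28%) and lower in 1 (4%), against 13.2% and 11.4% of all tested genes. Slc9a7, a sodium-proton exchanger of the trans-Golgi network, had the largest fold of all members: it ran from 0.687 to 2.16 CPM in air (median 1.67) and from 2.82 to 5.61 CPM in CNC (median 4.08), a 2.52-fold rise (log2 fold change 1.33 ± 0.23 SE, adjusted p = 0.000552). Slc4a5, an electrogenic sodium bicarbonate cotransporter, ran from 7.35 to 10.6 CPM in air (median 9.58) and from 16.3 to 26.4 CPM in CNC (median 18.8), a 2.15-fold rise (log2 fold change 1.10 ± 0.11 SE, adjusted p = 6.82e-06). Both genes had groups that were apart. The sodium-proton exchanger Slc9a5 rose 1.39-fold from 18.4 ± 0.917 to 25.5 ± 2.49 CPM, and the anion exchanger Slc4a2 rose 1.16-fold from 137 ± 4.21 to 159 ± 6.83 CPM. The Slc26 anion exchangers Slc26a11, Slc26a2 and Slc26a6 rose 1.39-, 1.26- and 1.22-fold, each with 1 CNC rat inside the air range. The potassium chloride cotransporter Slc12a4 fell 1.12-fold from 133 to 119 CPM.

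The sodium pump, whose gradient drives many of these carriers, was followed in a list of 11 subunits and regulators, where CNC rats were higher for 6 and lower for 4. The beta subunit Atp1b1 rose 1.34-fold from 134 ± 17.1 to 179 ± 17.7 CPM, and the beta subunit Atp1b2 fell 1.32-fold from 10.6 ± 1.67 to 8.11 ± 1.11 CPM. The regulators Fxyd2, Fxyd3 and Fxyd5 rose 1.54-, 1.56- and 1.28-fold, and Fxyd1 and Fxyd6 fell 1.28- and 1.13-fold. Of 9 kinases and ligases that regulate ion carriers, Wnk4 alone was called, with a rise of 1.20-fold from 31.8 ± 1.18 to 37.97 ± 2.14 CPM.

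Carriers of zinc and other metals rose by small amounts, with 8 of 21 higher, 1 lower and a median log2 fold change of 0.11. Of all tested genes 13.2% were higher and 11.4% lower. The zinc importer Slc39a2 ran from 22.1 to 26.7 CPM in air (median 23.1) and from 27.4 to 39.3 CPM in CNC (median 34.3), a 1.42-fold rise (log2 fold change 0.51 ± 0.09 SE, adjusted p = 0.000912) with no overlap. Slc39a8, an importer of zinc and manganese, rose 1.17-fold from 72.2 ± 5.36 to 84.3 ± 4.65 CPM (adjusted p = 0.00313), with 2 CNC rats inside the air range. Slc39a11 rose 1.26-fold from 14.6 ± 1.14 to 18.4 ± 1.13 CPM and the Golgi zinc carrier Slc30a7 rose 1.24-fold from 19.5 ± 1.11 to 24.2 ± 1.20 CPM, both without overlap. Slc39a1, Slc39a7 and Slc39a13 rose 1.10-, 1.08- and 1.08-fold, and the copper carrier Slc31a2 rose 1.25-fold. The zinc exporter Slc30a1 (38.6 ± 2.14 and 38.4 ± 2.56 CPM, adjusted p = 0.932) and the copper importer Slc31a1 (22.7 ± 1.12 and 25.0 ± 2.46 CPM, adjusted p = 0.131) were not called. Slc30a3, a vesicular zinc carrier, fell 1.21-fold from 11.0 ± 0.861 to 9.08 ± 0.789 CPM (adjusted p = 0.0206), a call lost without air rat 2 (adjusted p = 0.0507, and 0.00829 to 0.445 over all alternatives).

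Among the 8 cation exchangers 3 were higher and 1 lower, where 13.2% of all tested genes were higher and 11.4% lower. Slc41a2, a magnesium carrier, rose 1.45-fold from 9.69 ± 0.851 to 14.1 ± 1.77 CPM, and Slc41a1 of the same family rose 1.11-fold from 34.8 ± 1.56 to 38.8 ± 1.82 CPM. Within the potassium-dependent sodium-calcium exchangers the calls were opposite in sign: Slc24a4 rose 1.31-fold from 17.2 ± 0.596 to 22.6 ± 2.98 CPM (adjusted p = 0.00181), and Slc24a3 fell 1.14-fold from 64.5 ± 2.62 to 56.8 ± 2.33 CPM (adjusted p = 0.00227).

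The neurotransmitter and amine role, made up of the Slc6 and Slc18 families, had 4 of 10 members higher and 3 lower. Of all tested genes 13.2% were higher and 11.4% lower. The role also counts Slc6a20 and Slc6a14, which carry amino acids and are not among the 27 above. Slc6a12, which carries betaine and GABA, ran from 2.08 to 3.59 CPM in air (median 2.59) and from 4.83 to 6.59 CPM in CNC (median 5.41), a 2.05-fold rise (log2 fold change 1.03 ± 0.14 SE, adjusted p = 6.93e-05). The taurine carrier Slc6a6 had a narrow spread, from 307 to 323 CPM in air (median 315.5) and from 380.2 to 419.9 CPM in CNC (median 406), and rose 1.27-fold (log2 fold change 0.35 ± 0.03 SE, adjusted p = 2.23e-06). Both rises, and that of the proline carrier Slc6a20 (1.59-fold, from 15.1 ± 0.870 to 23.9 ± 3.72 CPM), left the groups without overlap. Slc6a14, an epithelial carrier of neutral and cationic amino acids, rose 1.21-fold from 115 ± 10.6 to 139 ± 14.9 CPM (adjusted p = 0.00971), with 2 CNC rats inside the air range.

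The serotonin and noradrenaline carriers of this role fell, as did the creatine carrier. Slc6a4, the serotonin carrier, which in the lung is known from capillary endothelium, ran from 86.8 to 108 CPM in air (median 91.6) and from 62.2 to 80.0 CPM in CNC (median 68.3), a 1.37-fold fall with no overlap (log2 fold change -0.46 ± 0.07 SE, adjusted p = 0.000167). Slc6a2, the noradrenaline carrier, ran from 6.03 to 9.83 CPM in air (median 8.07) and from 3.57 to 6.96 CPM in CNC (median 5.07), a 1.52-fold fall with 2 CNC rats inside the air range (log2 fold change -0.60 ± 0.16 SE, adjusted p = 0.0111). The creatine carrier Slc6a8 fell 1.17-fold from 69.6 ± 2.80 to 59.3 ± 2.52 CPM.

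**Figure D4:**
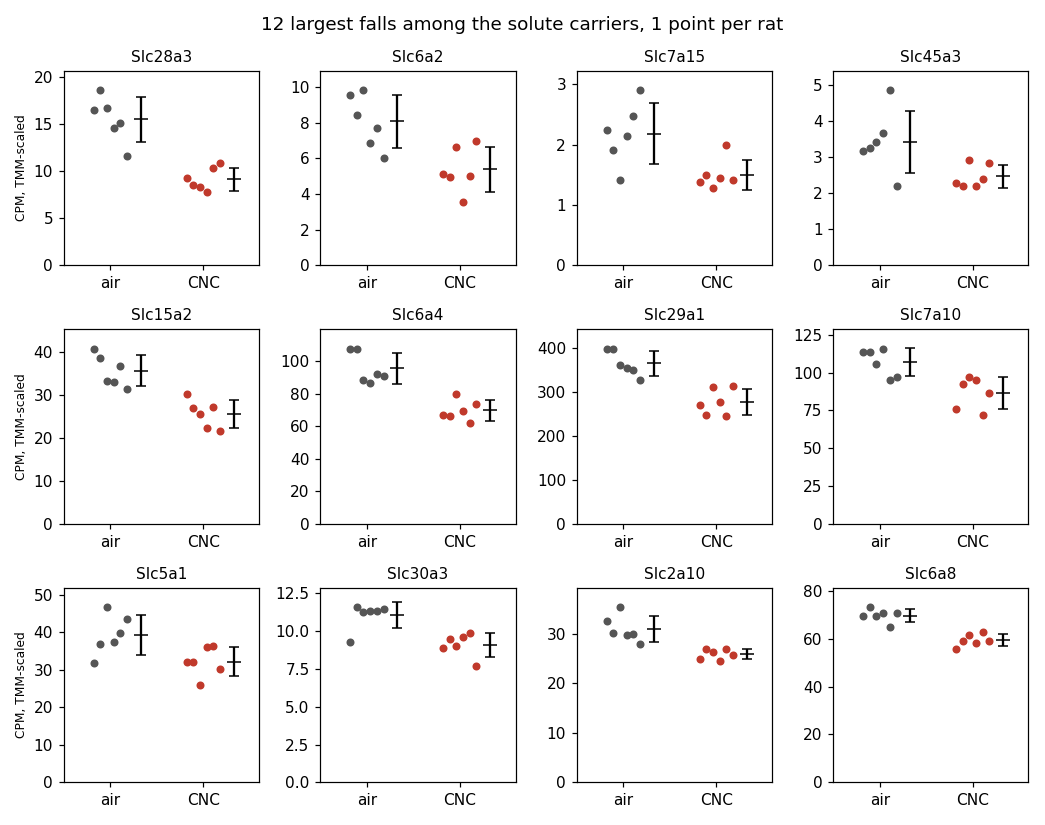
TMM-scaled CPM (vertical axis of each panel, starting at 0) of the 12 carriers with the largest falls, with 1 point per rat and the mean and SD of each group beside the points. The groups are apart for Slc28a3, Slc15a2, Slc6a4, Slc29a1, Slc2a10 and Slc6a8 and overlap in the other 6 panels.

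Of the 4 nucleoside carriers of the Slc28 and Slc29 families 2 fell, 1 rose and 1 was not called. Slc28a3, which concentrates nucleosides with sodium, ran from 11.6 to 18.6 CPM in air (median 15.8) and from 7.76 to 10.9 CPM in CNC (median 8.90), a 1.71-fold fall (log2 fold change -0.78 ± 0.11 SE, adjusted p = 0.000115) and the largest fall among the members. Slc29a1, the equilibrative carrier that takes up adenosine, ran from 328 to 398 CPM in air (median 358) and from 246 to 313 CPM in CNC (median 274), a 1.32-fold fall (log2 fold change -0.40 ± 0.07 SE, adjusted p = 0.000453). The groups of both genes were apart. Slc29a3, the lysosomal member of that family, rose 1.30-fold from 13.1 ± 0.342 to 17.1 ± 1.17 CPM, also with no overlap. The sodium-coupled Slc28a2 was not called (23.2 ± 1.50 CPM in air and 21.3 ± 1.25 CPM in CNC, adjusted p = 0.117).

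Over the 24 carriers of nucleosides and nucleotide sugars 5 (20.8%) were higher and these 2 (8.33%) lower, against 13.2% and 11.4% of all tested genes. Slc35g1, with few counts, rose 1.51-fold from 2.36 ± 0.397 to 3.58 ± 0.711 CPM, and Slc35c1, the Golgi carrier of GDP-fucose, rose 1.12-fold. Slc35b1, an ATP carrier of the endoplasmic reticulum, rose 1.10-fold from 48.7 ± 1.82 to 53.4 ± 2.22 CPM (adjusted p = 0.0176), a call lost without CNC rats 3 and 6 together (adjusted p = 0.0562, and 0.00868 to 0.496 over all alternatives). Slc35e3 rose 1.09-fold, a call lost without air rats 4 and 5 together (adjusted p = 0.0520), without CNC rats 3 and 6 together (adjusted p = 0.0533) and with library size as the only scaling (adjusted p = 0.0537).

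The endothelial marker sum given above was lower in CNC as well, and 12 of 12 endothelial markers were called lower, with a median log2 fold change of -0.27. Other lists were lower too, with 0 markers called higher in any of those given here. Called lower were 5 of 6 tested red cell markers (median log2 fold change -0.49) and 6 of 7 fibroblast markers (-0.37). So were 4 of 8 smooth muscle markers (-0.29), 6 of 10 alveolar type 1 cell markers (-0.17) and 4 of 8 tested airway epithelium markers (-0.31). In air and CNC the summed CPM ran from 2550 to 3291 and from 1743 to 2334 for red cells, and from 2717 to 3297 and from 2112 to 2400 for fibroblasts. It ran from 741.5 to 1058 and from 658 to 804 for smooth muscle, and from 10010 to 12370 and from 9516 to 9852 for alveolar type 1 cells. For airway epithelium the sum ran from 6702 to 8396 in air and from 5726 to 7054 in CNC. The part of any of these cells in the lower values of the 16 members that fell, Slc6a4 (-0.46) and Slc29a1 (-0.40) among them, was not tested. The prostaglandin carrier Slco2a1, which endothelium also expresses, belongs to a separate carrier superfamily whose symbols fall outside the group. It ran from 1182 to 1302 CPM in air (median 1237) and from 878 to 1068 CPM in CNC (median 1017), a 1.25-fold fall (log2 fold change -0.32 ± 0.05 SE, adjusted p = 0.000180) with no overlap. Of 8 tested Slco genes 3 fell (Slco2a1, Slco3a1 and Slco1a2) and 1 rose (Slco1a5, 1.68-fold from 8.05 ± 1.70 to 13.3 ± 2.88 CPM).

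Of the 5 peptide and lysosomal carriers 2 were higher and 1 lower, where 13.2% of all tested genes were higher and 11.4% lower. Slc15a2, the proton-coupled peptide carrier of the epithelial surface, ran from 31.5 to 40.9 CPM in air (median 35.01) and from 21.6 to 30.3 CPM in CNC (median 26.4), a 1.39-fold fall with no overlap (log2 fold change -0.48 ± 0.08 SE, adjusted p = 0.000647). Slc15a3, a lysosomal carrier of histidine and small peptides in immune cells, ran from 25.8 to 30.8 CPM in air (median 28.3) and from 31.5 to 40.9 CPM in CNC (median 36.5), a 1.30-fold rise with no overlap (log2 fold change 0.37 ± 0.07 SE, adjusted p = 0.000834). The vesicular nucleotide carrier Slc17a9 rose 1.29-fold from 8.84 ± 0.955 to 11.4 ± 1.48 CPM, and the lysosomal sialic acid carrier Slc17a5 was not called (17.9 ± 0.988 and 18.6 ± 1.86 CPM, adjusted p = 0.688). The activated macrophage markers had a median log2 fold change of 1.24, and the summed CPM of 10 alveolar macrophage markers (with Marco at 0 in every library) ran from 663 to 767 in air and from 879 to 1208 in CNC. Of the 9 tested, 5 were higher, 2 (Fabp4 and Car4) lower and 2 (Siglec1 and Mrc1) not called, and Plet1 went from 180 ± 23.96 to 350.1 ± 44.2 CPM and Cd68 from 72.1 ± 11.1 to 146 ± 20.3 CPM. The part of these cells in the values of Slc15a3, Slc29a3, Slc37a2 and Slc7a7, which macrophages are known to express, was not tested.

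Of the 38 mitochondrial carriers of the Slc25 family 7 (18.4%) were higher and 0 lower, against 13.2% and 11.4% of all tested genes. The median log2 fold change of the family was 0.01. Slc25a10, which exchanges dicarboxylates for phosphate, ran from 20.5 to 25.97 CPM in air (median 22.9) and from 33.3 to 39.3 CPM in CNC (median 35.8), a 1.57-fold rise with no overlap (log2 fold change 0.65 ± 0.06 SE, adjusted p = 2.41e-06). Slc25a13, the aspartate and glutamate carrier also called citrin, rose 1.46-fold from 14.0 ± 1.47 to 20.4 ± 2.99 CPM with no overlap. Of the adenine nucleotide translocases, Slc25a5 rose 1.17-fold from 153 ± 4.88 to 179 ± 8.49 CPM, and Slc25a4, the form of muscle and heart, was not called (134 ± 9.62 and 137 ± 4.03 CPM, adjusted p = 0.655). Slc25a43 rose 1.32-fold, Slc25a25 and Slc25a24, both calcium-regulated carriers of ATP and magnesium, 1.18- and 1.15-fold, and the mitochondrial iron importer Slc25a37 1.15-fold. The mitochondrial pyruvate carrier subunit Mpc1, from outside the family, rose 1.16-fold from 58.7 ± 4.28 to 68.3 ± 3.74 CPM, and its partner Mpc2 was not called (37.4 ± 1.91 and 39.0 ± 2.09 CPM, adjusted p = 0.344).

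Organic ion carriers were higher in 4 of 16 members (25%) and lower in 2 (12.5%), against 13.2% and 11.4% of all tested genes. Slc47a1, which extrudes organic cations in exchange for protons, ran from 4.98 to 6.72 CPM in air (median 5.75) and from 7.67 to 15.7 CPM in CNC (median 10.7), a 1.90-fold rise with no overlap (log2 fold change 0.92 ± 0.15 SE, adjusted p = 0.000366). Slc22a23 rose 1.32-fold from 237 ± 21.1 to 312 ± 24.1 CPM and Slc22a18 rose 1.20-fold from 22.7 ± 1.19 to 27.2 ± 1.67 CPM. The carnitine carrier Slc22a5 fell 1.13-fold from 31.6 ± 1.15 to 27.9 ± 2.096 CPM (adjusted p = 0.0193). In the choline carrier family Slc44a4 rose 1.32-fold and Slc44a1 fell 1.07-fold, and Slc44a2 was not called (388 ± 15.3 and 368 ± 14.0 CPM, adjusted p = 0.134).

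Among vitamin carriers 2 of 10 were higher and 0 lower, where 13.2% of all tested genes were higher and 11.4% lower. The phosphate and sulfate role held phosphate carriers of the Slc20 and Slc34 families alone, and 1 of its 3 members was higher and 0 lower. Slc23a1, a sodium-coupled ascorbate carrier of epithelia, ran from 5.47 to 8.86 CPM in air (median 7.76) and from 10.2 to 15.9 CPM in CNC (median 11.4), a 1.62-fold rise with no overlap (log2 fold change 0.70 ± 0.13 SE, adjusted p = 0.000876). Slc46a3, a lysosomal member of the folate carrier family, rose 1.27-fold from 8.08 ± 0.976 to 10.3 ± 1.30 CPM (adjusted p = 0.0233), a call lost without air rat 2 or CNC rat 5 (adjusted p = 0.0550 and 0.0541, and 0.0115 to 0.660 over all alternatives). The phosphate carrier Slc20a1 rose 1.11-fold from 103 ± 4.77 to 115 ± 5.94 CPM (adjusted p = 0.0117). The single urea carrier of the group had a log2 fold change of -0.11 and was not called.

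Genes of the circadian clock differed between the groups too, with 7 of 15 tested clock genes higher and 6 lower. Dbp, a clock output gene, was 4.06-fold higher at 14.7 CPM in air and 59.8 CPM in CNC, and Arntl, which drives the clock, was 1.94-fold lower at 50.2 and 25.8 CPM. The first principal component of the clock list ran from -0.44 to 2.89 in air and from -2.49 to -0.55 in CNC, without overlap. With this component as a covariate, 12 members were higher and 0 lower, where 2.80% of all tested genes were higher and 1.50% lower. These 12 were Slc6a6, Slc22a23, Slc16a11, Slc39a8, Slc7a2, Slc2a1, Slc16a1, Slc30a7, Slc26a2, Slc16a3, Slc4a5 and Slc9a7, and they kept their call in every other fit at the threshold of 0.05 as well. Of the 81 called members 79 kept their sign, the log2 fold change was a median of 0.911 of that without the covariate, and the standard error was larger by a median factor of 2.15.

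**Figure D5:**
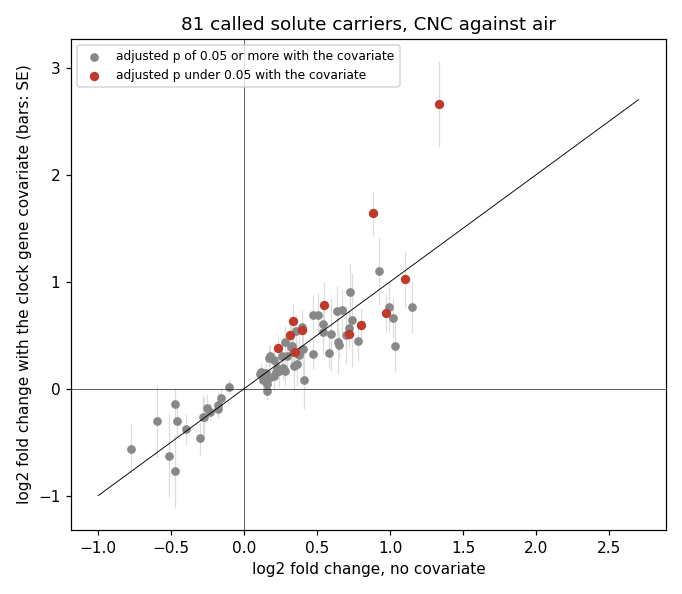
Log2 fold change of CNC against air of the 81 called members without a covariate (horizontal axis) and with the clock gene covariate (vertical axis, bars give the SE), with the line of equal values. The 12 members still called with the covariate are red, and 79 of the 81 points keep their sign.

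The part of the clock genes in the members' values was not tested beyond this fit, in which group and clock component cannot be fully told apart. Without the covariate, 65 of the 81 calls held in all other fits at the threshold of 0.05, and at a threshold of 0.01 the counts were 45 higher and 8 lower. Of the 16 others, 12 were lost when some single rat was left out, of which 5 (Slc7a15, Slc5a1, Slc45a3, Slc30a3 and Slc46a3) are given above. Slc44a1 lost its call without any rat but air 4 and CNC 4 (adjusted p up to 0.121, and 0.00421 to 0.932 over all alternatives). Slc39a13 lost it without any rat but air 3 and CNC 5 (up to 0.0846, and 0.0102 to 0.357). Slc7a6 lost it without air rat 1, 2, 3 or 5 or CNC rat 1, 2, 3 or 5 (up to 0.0837, and 0.0219 to 0.521). Slc43a2 lost it without air rat 2, 4, 5 or 6 or CNC rat 2, 4 or 5 (up to 0.0779, and 0.0105 to 0.212), and Slc44a4 without air rat 1, 2, 3 or 6 or CNC rat 5 or 6 (up to 0.0790, and 0.00417 to 0.910). Slc25a24 lost it without air rat 1 or CNC rat 2 (up to 0.0527, and 0.00644 to 0.270), and Slc25a37 without air rat 2 or CNC rat 2 (up to 0.0581, and 0.00854 to 0.684). Slc39a7 lost it when air rats 4 and 5 were left out together (adjusted p = 0.0558, and 0.00543 to 0.228 over all alternatives).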

How the data were processed

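Per the labels' protocols, total RNA from a lung piece of each rat went into strand-specific libraries of polyadenylated RNA that were amplified by PCR. Tools listed in the submitters' processing notes, with no role given, are HTSeq 0.11.2, HISAT2 2.1.0, SAMtools 1.8, Trimmomatic 0.35, bcl2fastq 2.19 and Cufflinks. The authors deposited raw counts per gene symbol, whole numbers with no normalization, in a table whose name gives the rat build Rnor6. How strand was handled in counting, and which annotation was used, is not given in the sources used here, so genes that overlap an antisense gene or have a near-identical copy are uncertain. Amplified reads are not independent molecules, and intervals and tests cannot remove error from amplification.

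Groups follow the treatment in the labels, with each library 1 rat, so p-values measure the spread between these 12 samples. Rats were housed 3 per cage and the test held no term for cage, so likeness between cage mates is not accounted for. No pair of libraries looked like a repeat of another: within groups, 30 pairs gave a chi-square per degree of freedom between 2.69 and 8.36, with about 1 for sampling noise. Counts of all genes were filtered with filterByExpr (minimum count 10, minimum total 15), scaled by TMM and tested by the quasi-likelihood functions glmQLFit and glmQLFTest of edgeR 4.0.16 under R 4.3.3, CNC against air, at an adjusted p of 0.05 over 15019 genes. CPM are TMM-scaled, except in the rule for members, which uses library totals. A standard error is the size of the log2 fold change over the square root of F. The procedure was tested on simulated data. The alternatives were DESeq2 1.42.0 size factors, upper-quartile scaling and library size alone; no count filter or 1 CPM in 6 libraries; DESeq2's Wald test, limma-voom from limma 3.58.1, plain or with quality weights, and robust edgeR; covariates for 1 surrogate variable (sva 3.50.0), clock genes and heart muscle genes; other thresholds and member minimums; and leaving out each rat, air rats 4 and 5, or CNC rats 3 and 6.

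The members, roles, gene lists, tests and alternatives were chosen with earlier results of these data known. The named genes are the called members with the 12 greatest folds in each direction, at most 4 per role with the smallest adjusted p, and a panel of well-known carriers, of which Slc2a3 is no member. The other called members were named after their values were seen, so that every call is accounted for. The uncalled Slc38a5, Slc1a3 and Slc28a2 were also named outside these rules. Some single genes are not reported here. Promoters come from RefSeq (GRCr8), and figures were drawn with matplotlib 3.10.9 under Python 3.11.15.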

Additional observations from a re-analysis of the deposited data

Results flagged for a closer look

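In 6 of 136 groups of 6 rats, those of the named members, 1 rat stood apart from the rest by Dixon's test, a share of 4.41%, and chance flags about 1 in 20 groups. Air rat 1 had the lowest Slc30a3 of its group, 9.29 CPM, with the other air rats between 11.25 and 11.57 CPM. Air rat 4 had the lowest Slc7a2, 25.3 CPM, with the others between 33.7 and 38.5 CPM. CNC rat 3 was the lowest of its group for Slc37a2, at 15.0 CPM with the others between 18.5 and 20.0 CPM, and for Slc41a2, at 10.8 CPM with the others between 14.2 and 16.2 CPM. CNC rat 5 was the highest of its group for Slc4a5, at 26.4 CPM with the others between 16.3 and 19.4 CPM, and for Slc7a15, at 1.99 CPM with the others between 1.28 and 1.50 CPM.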

How the results depend on the processing

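Over the 26 alternative fits at the threshold of 0.05, the clock covariate aside, 59 to 69 members were higher and 12 to 21 lower in CNC, against 65 and 16. With the clock covariate 12 were higher and 0 lower, and at an adjusted p of 0.01 the number lower was 8. Standard errors with the clock covariate were larger by a median factor of 2.15, and the cause of the lost calls was not tested further. Of the called genes, Slc41a1 and Slc44a1 alone turned in direction, to log2 fold changes of -0.026 and 0.016 with the clock covariate. The others reported here that turned were not called in the first place: with the clock covariate Slc25a4 was at -0.17, Slc27a1 at -0.025, Slc27a3 at -0.22, Slc30a1 at 0.15 and Slc3a2 at 0.026, and without CNC rats 3 and 6 Slc27a3 was at -0.037. Slc30a1 ran from -0.031 to 0.024 when each rat was left out in turn. No paired analysis was possible because the labels give each rat its own number, and no number marks a pair across the groups. Depth limits the 32 members under 5 CPM most, with a median coefficient of variation of 24.8% in air and 21.7% in CNC, against 7.13 and 7.43% in the other 192.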
